A study of Mus musculus with 13 samples.

Results

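Differentiating female mouse embryonic stem cells (mESCs) were examined for 10 genes of the actin and smooth muscle contractile apparatus among the 25965 genes of the expression table. These were the actins Acta2, Acta1, Actc1 and Actg2, the calponin family members Tagln and Cnn1, the myosin light chain gene Myl9, the tropomyosin genes Tpm1 and Tpm2, and the caldesmon gene Cald1. The genes were chosen by symbol, and the choice rested on the change per day over days 4 to 7, in which Acta2, Tagln and Acta1 head the table, so that change is described here without a test.

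The cells were F1 hybrids of an FVB/NJ mother and a CAST/EiJ father. One library, Day0, came from undifferentiated cells, and on each of days 4, 5, 6 and 7 of differentiation 1 library carried Nons, a nonsilencing hairpin, and 1 each carried Smarcc1.6 or Smarcc1.7, hairpins against Smarcc1. Hairpins were delivered by retrovirus on day 2 with puromycin selection from day 3, while the cells were weaned from 2i medium into medium with serum, with no feeder cells and no factor added to direct their fate. Smarcc1 is a core subunit of the BAF chromatin remodelling complex, and the comparison asks what its depletion does during differentiation. Each same-day comparison of both hairpins uses 1 shared Nons library, and nothing states that the libraries were separate cultures, so p-values measure only the spread between these libraries.

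Smooth muscle cells shorten when myosin pulls on filaments of actin, and the filaments are dressed with tropomyosin, calponin and caldesmon. Acta2 and Tagln are the classical markers of smooth muscle and of myofibroblasts, Acta1 and Actc1 encode the skeletal and cardiac muscle actins, and Actg2 encodes the enteric one. Many of these genes are driven by serum response factor (SRF), which binds a short element called the CArG box and is helped by the actin-sensing cofactors Mkl1 and Mkl2 or by the muscle cofactor Myocd. Serum, adhesion and the TGF-beta pathway all feed into this circuit in cultured cells.

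Because SRF is the best known regulator of the group, the 250 bases before the RefSeq start were read for the members (build GRCm38.p6, table of 32851 windows of 300 bases). A window existed for 8 members, 9 windows in all. The whole windows of Acta1, Myl9 and Actc1 held an exact CArG box of 10 letters, against 1.63% of all windows. The box is CC, then 6 letters of A or T, then GG. That pattern is the same on both strands, though a sequence matching it need not be. With 1 letter allowed to differ, 6 of the 8 members had a match, against 21.1% of all windows. The upstream parts of the 3 genes with an exact box, and of Acta2, whose 2 near matches begin 84 and 34 bases before the start, are printed 5′ to 3′ on the gene's strand, with the exact box in capitals.
Acta1, chr8:123894776-123895025, minus strand: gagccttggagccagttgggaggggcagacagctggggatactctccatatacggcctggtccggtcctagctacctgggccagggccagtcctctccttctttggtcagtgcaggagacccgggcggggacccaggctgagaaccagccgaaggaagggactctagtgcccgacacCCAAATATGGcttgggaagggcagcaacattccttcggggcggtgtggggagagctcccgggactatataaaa
Myl9, chr2:156775214-156775463, plus strand: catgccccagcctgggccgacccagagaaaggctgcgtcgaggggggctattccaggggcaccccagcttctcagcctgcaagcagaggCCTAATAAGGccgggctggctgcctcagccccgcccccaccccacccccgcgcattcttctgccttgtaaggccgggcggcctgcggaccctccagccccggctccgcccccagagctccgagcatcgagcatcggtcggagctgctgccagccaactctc
Actc1, chr2:114052876-114053125, minus strand: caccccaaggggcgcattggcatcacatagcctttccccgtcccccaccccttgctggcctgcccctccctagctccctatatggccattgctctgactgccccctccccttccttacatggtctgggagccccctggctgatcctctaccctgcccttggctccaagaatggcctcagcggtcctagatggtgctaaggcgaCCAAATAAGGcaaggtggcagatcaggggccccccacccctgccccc
Acta2, chr19:34255374-34255623, minus strand: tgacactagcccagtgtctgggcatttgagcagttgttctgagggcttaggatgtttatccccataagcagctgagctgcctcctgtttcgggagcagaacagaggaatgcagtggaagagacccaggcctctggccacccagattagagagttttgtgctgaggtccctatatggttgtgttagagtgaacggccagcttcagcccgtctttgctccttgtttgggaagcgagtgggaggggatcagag
The exact box began 73 bases before the start in Acta1, 161 in Myl9 and 47 in Actc1. A match is only a match of letters in this window.

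The knockdown rests on hairpins whose guide strands pair with the coding sequence of Smarcc1 on the plus strand of chromosome 9. The stretch of each hairpin oligo that is complementary to a Smarcc1 transcript in GENCODE M21 was as follows, with no other gene's transcript matching in full.
Smarcc1.6, target chr9:110177471-110177493, exon 13: tgtaactgcttcttcatcctgct
Smarcc1.7, target chr9:110173911-110173932, exon 11: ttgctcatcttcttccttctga
Levels are given as log2 CPM, CPM being counts of a gene scaled to a common total of mapped reads. Smarcc1 in Nons went from 9.10 on day 4 through 8.87 and 8.28 to 7.89 on day 7. Smarcc1.6 libraries had 7.42, 7.40, 7.28 and 7.28, and Smarcc1.7 libraries 7.96, 7.78, 7.17 and 7.51. Both hairpin libraries were below Nons on every day, by a mean of -1.41 ± 0.21 (SE) on day 4 and of -0.50 ± 0.21 on day 7, so the gap on day 7 was the narrowest of the 4. In the fit for each day described below, Smarcc1 was called lower on days 4, 5 and 6 (adjusted p = 0.0155, 0.0105 and 0.0127, limma). On day 7 it was not called (adjusted p = 0.238, limma).

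The libraries held 13993440 to 63548079 mapped reads, and a gene with 0 reads is written as 0.9 reads. Day0 and the 3 libraries of day 6 stood apart from the rest: 85.3% to 86.5% of their mapped reads lay in genes, and in each of the remaining 9 that share was 91.6% to 92.6%. Whatever set day 6 apart and the day itself cannot be told apart, so changes into and out of day 6 are read with that in mind, while the 3 libraries of day 6 share that range among themselves. Of the members, 8 averaged a log2 CPM of 0 or more across the 12 libraries after Day0 and were tested, among 13406 genes in all. Actc1 and Actg2 did not reach that level. They were described without a test.

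In undifferentiated cells the muscle actins were close to silent. The Day0 library held 2 reads of Acta2 and none of Acta1, Actc1 or Actg2 among 22287026 mapped reads, and 0 reads allow a level of up to -2.89 (the log2 CPM of 3 reads, counting error only). Cnn1, a calponin that dampens actomyosin, stood at -2.48 with 4 reads, Myl9, the regulatory light chain of smooth muscle myosin, at -1.67 with 7 reads, and Tagln, the actin cross-linker transgelin, at -0.67 with 14 reads. Tpm1 and Cald1, which also serve the cytoskeleton of non-muscle cells, were already at 6.91 and 6.65. Per kilobase of exon, Tpm1 had 18.5 CPM in Day0 and Cald1 8.33 CPM, whereas Tagln had 0.316. Of the 7 members with reads in Day0, 5 were below the Nons library of day 4, and the other 3 had 0 reads against 2, 1 and 1. Day0 has no replicate.

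**Figure D1:**
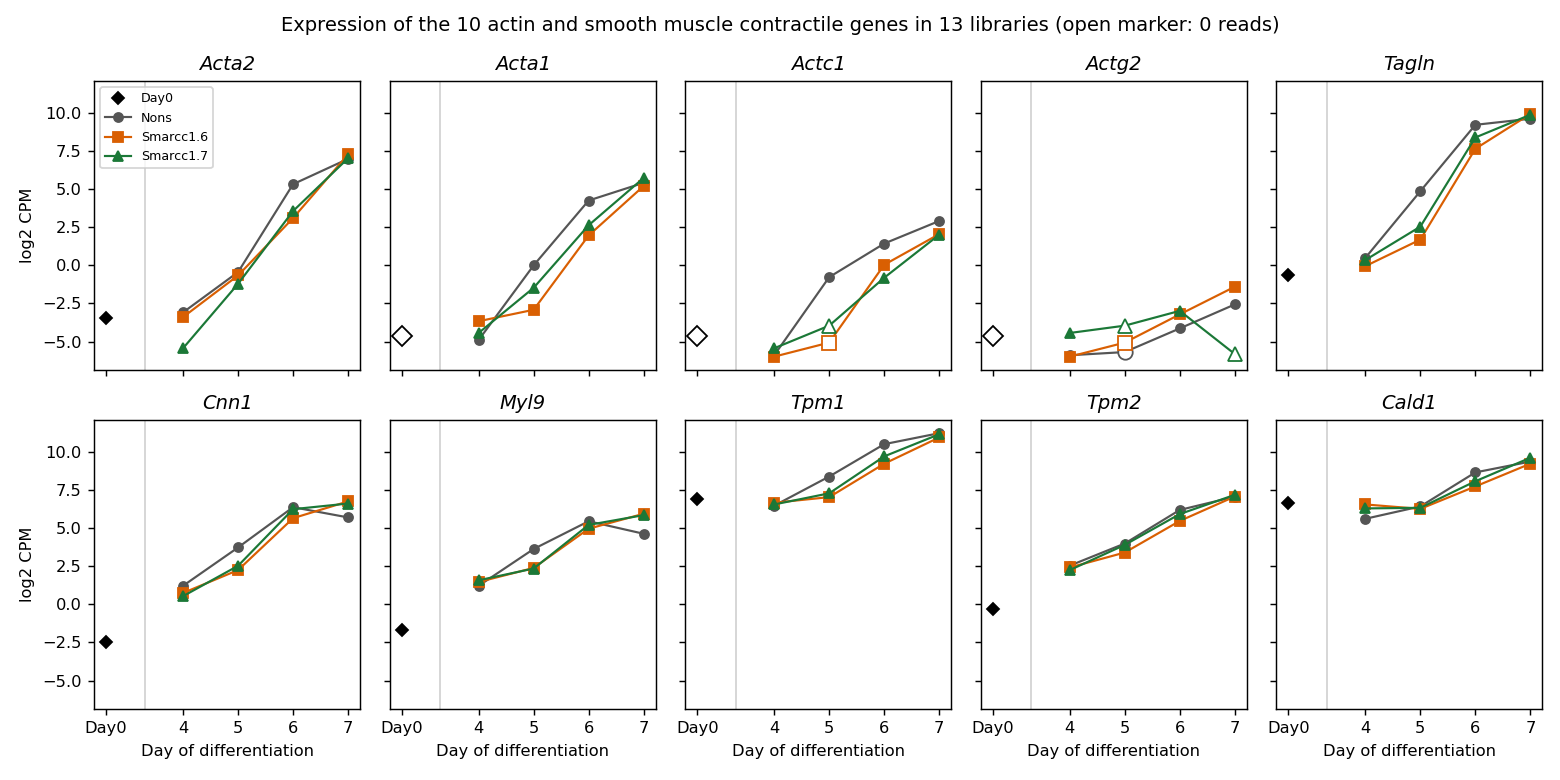
Level of each of the 10 genes (y axis, log2 CPM) in Day0 and on days 4 to 7 (x axis) for Nons (grey circles), Smarcc1.6 (orange squares) and Smarcc1.7 (green triangles), 1 library per point, with open markers where 0 reads were counted. Acta2 ran from -3.09 to 6.97 in Nons between days 4 and 7, and the hairpin libraries lay below Nons on days 5 and 6 for the members other than Actg2.

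Acta2, the smooth muscle alpha-actin, had the steepest course. In Nons it was at -3.09, -0.45, 5.31 and 6.97 on days 4, 5, 6 and 7. In Smarcc1.6 it was at -3.40, -0.67, 3.09 and 7.26, and in Smarcc1.7 at -5.44, -1.22, 3.55 and 7.01. All 3 libraries of each day lay above those of the day before, while on day 7 the groups were within 0.29 of each other. In reads, Nons went from 7 on day 4 to 3714 on day 7.

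Tagln had the most CPM per kilobase of annotated exon by the end. Its log2 CPM in Nons was 0.48, 4.85, 9.20 and 9.60 on days 4 to 7. Smarcc1.6 libraries had -0.06, 1.68, 7.63 and 9.91, and Smarcc1.7 libraries 0.34, 2.53, 8.37 and 9.86. The Nons library was thus far above both hairpins on day 5 and slightly below them on day 7. On day 7 Tagln had 390 CPM per kilobase of exon in Nons, ahead of Tpm1 with 364, Acta2 with 57.0 and Cald1 with 54.4, and it also led in both hairpin libraries, at 484 and 466. On day 4 the first place had belonged to Tpm1 with 13.6 in Nons, where Tagln was sixth with 0.700. The length used joins all annotated exons of a gene, 6485 bases for Tpm1 and 1988 for Tagln, so the order depends on that choice. Without scaling by length, Tpm1 was ahead in Nons on day 7, with 2361 CPM against 776 for Tagln.

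Acta1, the skeletal muscle actin, was below Acta2 in every library of days 6 and 7, but above it in Nons on day 5. It was at -4.90, -0.01, 4.24 and 5.40 in Nons, at -3.67, -2.92, 1.95 and 5.19 in Smarcc1.6 and at -4.44, -1.48, 2.62 and 5.72 in Smarcc1.7. Reads behind these values were few at first, 2, 5 and 2 on day 4 and 46, 4 and 5 on day 5 in the same order of groups. By day 7 the groups were again together, with 1251, 2146 and 2679 reads.

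Actc1, the cardiac actin, started from almost no reads and was at 2.90 in Nons on day 7, while Actg2, the enteric smooth muscle actin, stayed low. Actc1 had 1 read in each library of day 4. On day 5 it had 27 reads in Nons and 0 with either hairpin. With 3 reads as the floor of each hairpin library and the Nons count taken as exact, it was at least 5.88-fold lower in Smarcc1.6. In Smarcc1.7 it was at least 2.71-fold lower on that basis. Counting error alone allows 17.8 to 39.3 reads in Nons (95% interval), so the factors may be smaller. On day 6 there were 94, 38 and 18 reads, and on day 7 there were 222, 242 and 203, in the order Nons, Smarcc1.6, Smarcc1.7. These libraries differ in depth, and log2 CPM was 1.42, 0.03 and -0.82 on day 6 and 2.90, 2.04 and 2.00 on day 7. Both hairpin libraries thus stayed below Nons on day 7, at 55.1% and 53.4% of its level. Actg2 never exceeded 22 reads, and 5 libraries held none.

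Cnn1 and Myl9 had a different end of their course. Cnn1 in Nons was at 1.21, 3.72, 6.36 and 5.69, in Smarcc1.6 at 0.74, 2.24, 5.64 and 6.74, and in Smarcc1.7 at 0.53, 2.52, 6.23 and 6.60. Myl9 in Nons was at 1.21, 3.62, 5.44 and 4.62, in Smarcc1.6 at 1.46, 2.38, 4.95 and 5.93, and in Smarcc1.7 at 1.57, 2.34, 5.20 and 5.84. For both genes Nons was lower on day 7 than on day 6, by 0.66 for Cnn1 and 0.82 for Myl9 on the log2 scale, while both hairpin libraries were higher on day 7 than on day 6. For both genes Nons was the highest of the 3 libraries on day 5 and the lowest on day 7.

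Tpm1 and Cald1 changed from a higher base than Tpm2. Tpm1, whose product lies along the actin filament, was at 6.46, 8.37, 10.49 and 11.21 in Nons, at 6.65, 7.02, 9.21 and 10.93 in Smarcc1.6 and at 6.54, 7.27, 9.69 and 11.14 in Smarcc1.7. Tpm2 was at 2.53, 3.98, 6.18 and 7.05, at 2.41, 3.39, 5.46 and 7.06, and at 2.24, 3.89, 5.91 and 7.17 in the same groups. Cald1, which links actin, myosin and tropomyosin, was at 5.60, 6.41, 8.64 and 9.35 in Nons. With Smarcc1.6 it was at 6.54, 6.25, 7.72 and 9.21, and with Smarcc1.7 at 6.28, 6.32, 8.06 and 9.60. Tpm1 and Cald1 in Nons were lower on day 4 than in Day0, and only later passed that level.

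The fitted change per day, which the choice of genes used, was 3.79 ± 0.19 (SE) log2 units for Acta2, 3.40 ± 0.27 for Tagln and 3.37 ± 0.23 for Acta1. These took ranks 1, 2 and 3 of 13406 genes, just ahead of Stmn4 at 3.09. Cnn1 followed at 1.98 (rank 33), Tpm2 at 1.62 (rank 72), Tpm1 at 1.59 (rank 82), Myl9 at 1.46 (rank 129) and Cald1 at 1.16 (rank 326). All 8 tested members were past the threshold upward, as were 34.9% of all genes tested (26.7% after centring each library on its median autosomal gene), and nothing is read from that count. The median was 1.80 per day for the members and 0.04 for all tested genes, and without day 6 the members' median was 1.7. Between members the steps fell on different days. In Nons the largest of the 3 steps was from day 4 to 5 for 3 tested members and from day 5 to 6 for 5, in Smarcc1.6 it was from day 5 to 6 for 6 and from day 6 to 7 for 2, and in Smarcc1.7 it was from day 5 to 6 for all 8. The step into day 6 carries the difference of those libraries described above. Day 6 lay above the mean of days 5 and 7 by a median of 1.43 for the tested members in Nons, of 0.52 with Smarcc1.6 and of 0.58 with Smarcc1.7, against 0.11, 0.10 and 0.07 for all tested genes.

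Cells hold cytoplasmic actins, Actb and Actg1, in large excess, and the muscle actins can be expressed as a share of the pool. Reads per exon length were added over the 6 actins. The 4 muscle actins made up 0.0056% of the pool in Day0 and 0.0055% to 0.0076% on day 4. On day 5 Nons had 0.104%, Smarcc1.6 had 0.0364% and Smarcc1.7 had 0.0415%, and on day 6 it was 2.77%, 0.800% and 1.09%. On day 7 it was 5.56%, 5.96% and 5.86%, and the groups no longer stood apart. In Nons of day 7 Acta2 held 3.56%, Acta1 1.71%, Actc1 0.289% and Actg2 0.00675%. Actg1 was at 8.0 to 8.40 on day 6 and at 7.30 in Day0 but at 9.65 to 10.64 in the other libraries, so shares on day 6 and in Day0 are raised by its lower reads there. In the transcripts, 33.5% of the stretches of 75 bases of Actg1 also occur in 10 other genes, most of them unnamed or pseudogene models.

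**Figure D2:**
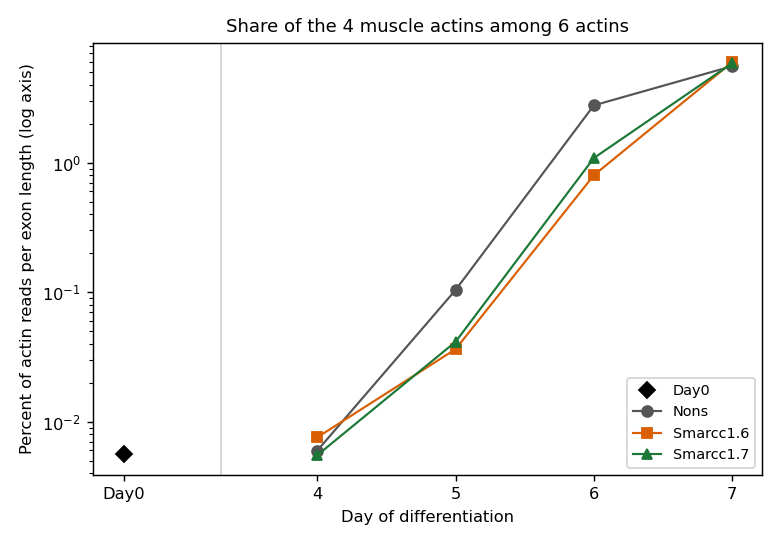
Share of the 4 muscle actins in the reads per exon length of 6 actins (y axis, percent, log axis) by day (x axis), 1 library per point. On days 5 and 6 Nons lay above both hairpins (0.104% against 0.0364% and 0.0415%, then 2.77% against 0.800% and 1.09%), and on day 7 all 3 libraries lay between 5.56% and 5.96%.

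Stretches of 75 bases that also occur in another gene were found for 2 members. For Tagln they were 53.3% of its stretches, in Pcsk7 and Gm48529, which lie on the opposite strand over it, and for Acta1 they were 0.394%, in Actb and Gm47692. Pcsk7 lies over only 108 bases of Tagln, and it stayed between 3.17 and 4.42 over days 4 to 7. Gm48529 lies over 3627 bases and is not among the 25965 genes, so its level could not be read. Whether counting used strand is not given in the sources used here, so reads of Tagln cannot be told apart from those of an antisense transcript over it. Genes on the opposite strand also lie over Acta1, Actc1 and Cald1. Gm20388 spans all 2983 bases of Acta1 and was at 5.24 to 7.26, with its highest level in Day0, where Acta1 had 0 reads. A530058N18Rik, over Actc1, did not exceed -2.57, and Gm13861, Npn2 and Gm14547, over Cald1, had 0 reads in every library.

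Over all 4 days together, knockdown against Nons put no member past the threshold. Differences were fitted to log2 CPM with limma, with day as a factor and p-values adjusted over all tested genes by the Benjamini-Hochberg method. Of the 8 tested members 0 were called, where 11.6% of all tested genes were. At an unadjusted p under 0.05 were 3 members, against 3770 of the 13406 tested genes. With limma's voom on the recovered reads it was 1 member, against 3728 genes, and 0 members were called. The lowest adjusted p-values were 0.0671 for Tpm1, at -0.57 ± 0.19 (SE, 95% interval -0.98 to -0.17), and 0.0974 for Tagln, at -1.0 ± 0.37. Fitted alone, Smarcc1.6 gave 0 members, where 9.3% of all tested genes were called, and Smarcc1.7 gave 0, where 2.45% were. An unadjusted p under 0.05 was found for 3 and 1 members, against 3369 and 2838 of the 13406 tested genes. Without the Nons library of day 7 the count for both hairpins together was 3 (Cnn1, Tagln and Tpm1), among 1572 genes called. Without that of day 4 it was 1 (Tpm1), among 2003. The counts over all genes were themselves unsteady. Smarcc1.7 called 329 genes, 6 without its library of day 6 and 1052 without the Nons library of day 4.

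The 2 hairpins could not be separated on any member. The difference between Smarcc1.6 and Smarcc1.7 was called for 0 members and for 0.0% of all tested genes, and 0 members and 530 genes had an unadjusted p under 0.05, by limma. Voom likewise called 0 members. The 95% intervals of that difference ran from -0.51 to 0.06 for Tpm2, the narrowest, and from -1.68 to 0.75 for Acta1, the widest, so differences of these sizes could have been missed. On days 5 and 6 Smarcc1.6 was nonetheless the lower of the 2 in Acta1, Tagln, Cnn1, Tpm1, Tpm2 and Cald1.

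Within days the picture was uneven, since every tested member was below Nons with both hairpins on days 5 and 6. This held for 8 of 8 tested members, and for 28.3% of all tested genes. No tested member was below Nons in all 8 same-day comparisons. The median difference of the tested members was 0.03 with Smarcc1.6 and -0.03 with Smarcc1.7 on day 4, and on day 5 it was -1.29 and -1.15. On day 6 it was -1.09 and -0.68, and on day 7 it was 0.15 and 0.25. All tested genes had medians between -0.04 and 0.02 in these comparisons. The members follow one another closely across libraries, so they do not count as independent observations. In bulk RNA, fewer cells expressing these genes and less RNA per cell cannot be told apart.

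**Figure D3:**
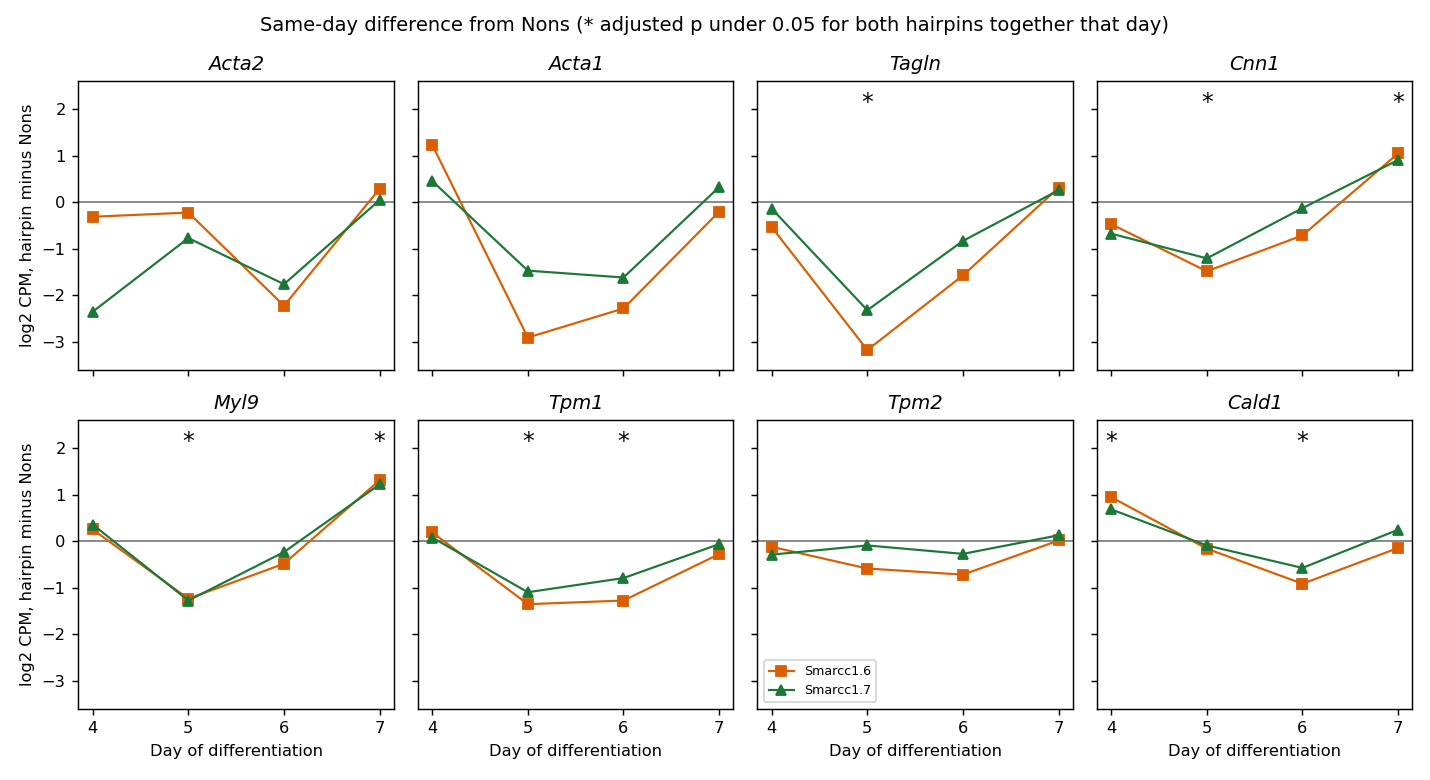
Difference from the Nons library of the same day (y axis, log2 CPM) on days 4 to 7 (x axis) for the 8 tested members, with Smarcc1.6 as orange squares and Smarcc1.7 as green triangles, 1 comparison of 2 libraries per point. Asterisks mark an adjusted p under 0.05 for both hairpins together on that day (limma). Points lie below 0 on days 5 and 6 in every panel, and above 0 on day 7 for Cnn1 and Myl9.

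A difference for each day was then fitted, with the spread between the 2 hairpins as the error, an analysis added after these values had been seen. On day 5 the test called 4 of the 8 members, all lower, against 2.82% of all tested genes called lower. Tagln fell by 2.75 on the log2 scale ± 0.34 (SE, adjusted p = 0.00543, limma with Benjamini-Hochberg), to 11.1% of the Nons level with Smarcc1.6 and 20.0% with Smarcc1.7. Cnn1 had -1.35 ± 0.24 (adjusted p = 0.0125), Myl9 -1.26 ± 0.18 (adjusted p = 0.00717) and Tpm1 -1.23 ± 0.18 (adjusted p = 0.00789). Without the Smarcc1.6 library of day 5, Tagln and Myl9 alone passed. Acta1 had -2.19 ± 0.59 and an adjusted p of 0.0529, on 46, 4 and 5 reads, and Acta2, at 34, 19 and 6 reads, had -0.50 ± 0.63. The hairpin library Smarcc1.7 of day 5 was also the shallowest of the series.

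On day 6 the test called Tpm1 (-1.03 ± 0.18, adjusted p = 0.00639) and Cald1 (-0.74 ± 0.18, adjusted p = 0.0323) lower, 2 of 8 members against 2.89% of all tested genes. Acta2 was at 21.4% of Nons with Smarcc1.6 and 29.5% with Smarcc1.7 (-1.99 ± 0.63, adjusted p = 0.0869), Acta1 at 20.5% and 32.6% (-1.95 ± 0.59, adjusted p = 0.0759) and Tagln at 33.6% and 56.1% (-1.20 ± 0.34, adjusted p = 0.0561). These 3 passed with voom and without the filter on low values, where 5 members were called in each. The genes called in either direction were then 830 of 13406 and 1295 of 25965. By contrast, eBayes without a trend called 0 members and 650 genes. Without the Smarcc1.6 library of day 6 only Tpm1 passed.

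Myl9 and Cnn1 were higher with the Smarcc1 hairpins on day 7, when Smarcc1 itself was not called lower. Myl9 was at 248% of Nons with Smarcc1.6 and at 233% with Smarcc1.7 (1.26 ± 0.18, adjusted p = 0.00161), and Cnn1 at 206% and 187% (0.97 ± 0.24, adjusted p = 0.0329), 2 of 8 members against 4.81% of all tested genes called higher. The Nons level of day 7 that both share was below that of day 6. Cnn1 lost its call without either hairpin library of day 7. On day 4 Cald1 was higher (0.81 ± 0.18, adjusted p = 0.0436), 1 of 8 members against 1.57% of all tested genes, a call lost without a variance trend and when any 1 of 5 libraries was left out (Smarcc1.6 of days 4, 5 and 6, Smarcc1.7 of days 5 and 6). The other tested members did not pass on these days, with differences on day 7 of -0.17 to 0.28.

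Differences between days were then fitted, in contrasts chosen because of the pattern just described. Their error is the spread between the 2 hairpins and holds no variation between Nons libraries, of which each day has 1, so the p-values are no independent evidence of that pattern. The day 7 difference minus the day 5 difference was 3.03 ± 0.47 for Tagln (adjusted p = 0.0159, limma), 2.52 ± 0.25 for Myl9 (adjusted p = 0.0047) and 2.32 ± 0.33 for Cnn1 (adjusted p = 0.0147). These were 3 of 8 members, against 1.57% of all tested genes called higher. The mean difference of days 5 and 6 minus that of days 4 and 7 was called for Tagln (-1.95 ± 0.34, adjusted p = 0.0429), Myl9 (-1.59 ± 0.18, adjusted p = 0.0149) and Tpm1 (-1.11 ± 0.18, adjusted p = 0.0396), where 0.186% of all tested genes were called lower (16 genes higher and 25 lower, or 25 and 23 after centring). With voom only Myl9 passed, as it was without the Smarcc1.6 library of day 4, and without that of day 5 or of day 6 none did. The product of knockdown and day, a straight line in time, was called for 0 members, where 3.75% of all tested genes were called by limma. An unadjusted p under 0.05 was found for 1 member, against 2529 of the 13406 tested genes. Voom called Cnn1, among 579 genes in all. Without the Nons library of day 4 the product was called for Cnn1, Myl9 and Tagln, among 198 genes. Without that of day 7 it was called for Cald1, among 458 genes.

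The hairpin libraries of days 5 and 6 had levels that lay between neighbouring days of Nons. On day 5 all 8 tested members in both hairpin libraries lay above the Nons library of day 4 and below that of day 5, and on day 6 all 8 lay between those of days 5 and 6. Among all tested genes that were higher in Nons than a day earlier, 49.1% (Smarcc1.6) and 50.3% (Smarcc1.7) did so on day 5, and 51.8% and 44.0% on day 6. On day 7, 3 tested members with Smarcc1.6 and 1 with Smarcc1.7 did, and 42.7% and 32.6% of such genes. Cnn1 and Myl9 were lower in Nons on day 7 than on day 6 and so could not lie between. The counts and shares of day 7 thus have unlike bases. These counts rest on 1 Nons library per day. The members were also chosen through their rise over these same libraries, which sets their Nons days far apart. The shares take in every tested gene with any rise in Nons, so nothing is read from the counts standing above them.

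Genes of the same circuit were read from lists. Srf itself was at 6.05, 6.43, 7.14 and 6.41 in Nons on days 4 to 7. Smarcc1.6 libraries had 5.81, 5.67, 6.74 and 6.62, and Smarcc1.7 libraries 5.78, 5.71, 6.80 and 6.53, so both hairpins were below Nons on days 4 to 6 and above it on day 7. The difference on day 5 was -0.74 ± 0.11 (adjusted p = 0.00755, limma). Its cofactor genes Mkl1 and Mkl2 had -0.21 ± 0.17 and -0.02 ± 0.15 that day and were not called, and Myocd, the cofactor of cardiac and smooth muscle, did not exceed 0.03 in any library and was not tested. Of the 9 tested genes for SRF and its cofactors, knockdown over all days called 0 higher and 1 lower, the LIM protein gene Csrp1 (-0.55 ± 0.15, adjusted p = 0.0352). Here 6.88% of all tested genes were called higher and 4.77% lower. Over days, 6 of the 9 rose and 1 fell, where 34.9% of all tested genes were called higher per day and 25.6% lower. After centring on the median autosomal gene that balance was the opposite, 26.7% higher and 35.3% lower. Fhl2 led with 1.18 ± 0.11 per day, then Csrp1 with 1.17 ± 0.11 and Elk3 with 0.46 ± 0.16.

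The actomyosin cytoskeleton is the machinery of contraction that non-muscle cells share. Of its 17 genes, all tested, 7 were called lower with knockdown over all days (4.77% of all tested genes), 0 were called higher and 10 did not pass, with a median of -0.24 against -0.01 for all tested genes. Among those called, Zyx, a focal adhesion protein, had the largest difference (-0.55 ± 0.12, adjusted p = 0.0167), followed by the filamin gene Flna (-0.48 ± 0.11, adjusted p = 0.0209), the actinin gene Actn1 (-0.40 ± 0.09, adjusted p = 0.0175) and the vinculin gene Vcl (-0.38 ± 0.10, adjusted p = 0.0278). On day 5 alone 8 of the 17 were called lower (2.82% of all tested genes), among them Tpm4 (-1.09 ± 0.23, adjusted p = 0.0216). Over days 10 of the 17 rose and none fell, led by Tpm4 (1.25 ± 0.10 per day), Actn1 (0.97 ± 0.08) and Zyx (0.91 ± 0.10). Myl6, Cfl1, Tpm3 and Actg1 had lower values in the day 6 libraries than on days 5 and 7, so their change per day holds that difference too.

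**Figure D4:**
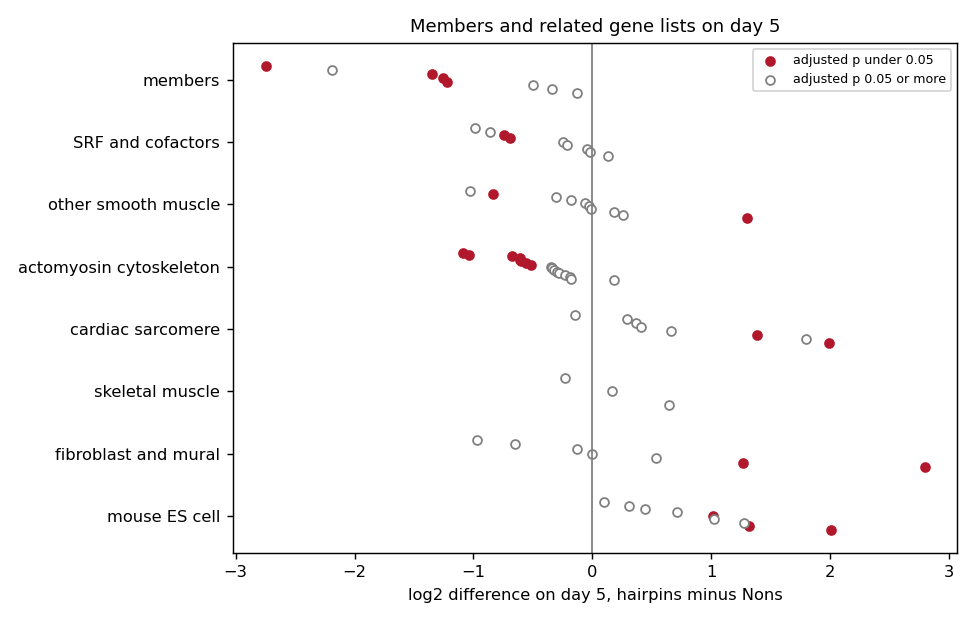
Difference on day 5 between both hairpins and Nons (x axis, log2 CPM) for each tested gene of the members and of 7 lists (y axis), in red where the adjusted p was under 0.05 (limma). All 8 members lie left of 0, as do 16 of the 17 actomyosin genes, whereas the mouse ES cell genes lie to the right.

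The remaining smooth muscle genes were mixed. Of 10 tested, knockdown called Ppp1r14a, an inhibitor of myosin phosphatase, higher (0.87 ± 0.14, adjusted p = 0.00439) and Cnn2 lower (-0.52 ± 0.15, adjusted p = 0.0449), against 6.88% and 4.77% of all tested genes. Over days 8 rose, led by Lmod1 (1.39 ± 0.24 per day), Cnn2 (1.25 ± 0.16) and Des (0.82 ± 0.11), and 2 fell, against 34.9% and 25.6% of all tested genes. Myh11, the smooth muscle myosin heavy chain and the strictest marker of the lineage, did not exceed 0.70 in any library and did not reach the filter. Mylk was at 0.10 or lower, and Pln was at 0 reads in 9 of the 13 libraries. On day 7 Myh11 was at -0.57 in Nons and at 0.52 and 0.24 with the hairpins, and all 3 libraries held 0 reads of Pln.

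Markers of other cell types moved in several directions beside the members. Mouse ES cell genes were higher with knockdown in 7 of 9, led by Prdm14 (1.62 ± 0.21, adjusted p = 0.00193) and Klf4 (1.40 ± 0.29, adjusted p = 0.0128), against 6.88% of all tested genes called higher. Over days 6 of 9 fell, against 25.6% of all tested genes. Their summed level in Nons was 1566 CPM on day 4, against 2729 and 2253 CPM with the hairpins, and 1519 against 2030 and 1719 CPM on day 5. It was 1758 against 1759 and 1879 CPM on day 6, and 1110 against 1390 and 1123 CPM on day 7. Pou5f1 held 84.8% of the Nons sum on day 6, and without it the sums that day were 267 CPM in Nons and 450 and 348 CPM with the hairpins. Their part in the members' differences was not tested. Of 7 tested fibroblast and mural genes, 2 were higher with knockdown, Col1a2 (2.82 ± 0.25, adjusted p = 0.000923) and Thy1 (0.83 ± 0.20, adjusted p = 0.024), and Twist1 was lower, against 6.88% and 4.77% of all tested genes. Their summed level was 59 to 70 CPM in Day0 and on day 4 and 250 to 440 CPM on day 7. Notch3 held more reads than any other gene of the list in Nons on days 4 and 7 (2289 and 3931). Col1a1 came next on day 7 with 2312, whereas Thy1 went from 4.12 to 1.18 in Nons, so the sum does not show each gene's course. Called rising over days were 5 of the 7 tested genes and falling 1, against 34.9% and 25.6% of all tested genes. Postn was at 0 reads in 6 libraries of days 4 and 5, and Rgs5 in 2 of day 7.

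Sarcomere genes of striated muscle went in both directions over days. Of 8 tested cardiac genes, 5 fell over days and 1 rose, Myl4 (1.23 ± 0.12 per day), against 25.6% and 34.9% of all tested genes. Tnni1 (-1.65 ± 0.22) and Ttn (-1.40 ± 0.14) fell most, and the list summed to 233 to 263 CPM on day 4 and to 35 to 46 CPM on day 7. Ttn, the giant titin gene, held 84.4% of the sum in Nons on day 4, and without it the sums were 38.0 to 41.1 CPM on day 4 and 22.8 to 30.5 CPM on day 7. Tnnc1 and Myl3, which were too low to be tested, went the other way, from 7 to 84 reads and from 3 to 30 reads in Nons between days 4 and 7. With knockdown 3 were higher, Tnni1 (1.95 ± 0.48, adjusted p = 0.0256), Myh7 (1.10 ± 0.28, adjusted p = 0.0295) and Actn2 (0.49 ± 0.14, adjusted p = 0.0472), against 6.88% of all tested genes. The skeletal list summed to 5 to 26 CPM in every library. Of its 3 tested genes Myh3 was higher with knockdown (0.82 ± 0.18, adjusted p = 0.0165) and fell over days, and Myf6 was at 0 reads in 12 of the 13 libraries.

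Over the 12 libraries of days 4 to 7, pairs of tested members had Pearson correlations of log2 CPM between 0.892 (Cald1 with Cnn1) and 0.994 (Tpm1 with Acta1). The members were chosen through their change per day over these same libraries, so nothing is read from these values. All points share the course of the days, and 1776 of 13405 tested genes had a correlation above 0.9 with Acta2. Outside the members, those most like Acta2 were Arhgef25 (0.992), Rassf7 (0.991), Bcl2l12 (0.990), the keratin gene Krt18 (0.989) and Itm2c (0.988). Krt18 went from 3.75 to 10.38 in Nons between days 4 and 7, whereas Bcl2l12 went from 2.50 to 3.48.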

How the data were processed

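The series comprised 13 RNA-seq libraries of female mESCs, made with the TruSeq RNA kit and sequenced as 75 bp pairs. The authors trimmed reads, mapped them to mm10 with FVB/NJ and CAST/EiJ SNPs masked (tophat or hisat2, with TopHat2 2.0.12 in the submitters' processing notes) and deposited log2 CPM per gene from Seqmonk, both alleles together. Which library had which aligner, the annotation release and the strand setting are not given in the sources used here. Deposited values were whole reads over 1 depth per library, with 0 written as 0.9 reads, which returned depths of 13993440 to 63548079 mapped reads. All values up to 50 reads were whole within 0.02.

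Genes averaging a log2 CPM of 0 or more on days 4 to 7 were tested (13406 of 25965), with limma 3.58.1 in R 4.3.3 (eBayes with a trend) and Benjamini-Hochberg adjustment at 0.05. The model had knockdown with day as a block, since libraries of 1 day share it. Per-day differences and contrasts between days were added after values were seen. Members and lists were chosen with earlier results of these data known. Named from each list were at most 4 genes called for knockdown and 3 for change per day, genes at 0 reads, and 5 genes most like Acta2. Genes named for single days, and those in sentences on Srf, Mkl1, Mkl2, Myocd, Myh11 and Mylk, were chosen after values were seen. Intervals on reads and the floor of 3 reads cover counting error only. Promoter windows came from RefSeq (GRCm38.p6) and transcripts from GENCODE M21. Tests were tried on simulated data, and alternatives covered centring, filters, variance trend, voom on recovered reads, the block and each library left out. The results of 2 further gene lists are not reported here.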

Additional observations from a re-analysis of the deposited data

Results flagged for a closer look

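Of 50 groups of 4 values that were looked at, 1 had a value far from the rest. This was the lowest same-day difference of Actg2 with Smarcc1.7, that of day 7, whose gap to its nearest neighbour was 0.883 of the range of the 4 differences, above Dixon's 95% critical value for 4 values. Chance gives about 1 such value in 20 groups, and the difference rests on 5 reads in Nons and 0 reads in Smarcc1.7.

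The knockdown difference itself differed between days for 4 members in contrasts chosen after the pattern was seen, with no variation between Nons libraries in their error. Days 5 and 6 minus days 4 and 7 gave -1.59 for Myl9, -1.95 for Tagln and -1.11 for Tpm1 on the log2 scale, with both hairpin libraries of days 5 and 6 below Nons for each. Day 7 minus day 5 gave 2.52 for Myl9, 2.32 for Cnn1 and 3.03 for Tagln. Each day has 1 Nons library, so a change specific to that library and one specific to its day cannot be told apart.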

How the results depend on the processing

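The number of tested members called changed with the processing as follows, and the cause was not tested. Without the filter on low values, knockdown over all days called 1 member and Smarcc1.6 alone 1, both Tpm1, where 0 were called before. Voom called 1 for the knockdown by day term (Cnn1). On single days, dropping the variance trend gave 0 on day 4, 0 on day 6 and 1 on day 7, and no filter and voom each gave 5 on day 6 in place of 2. For days 5 and 6 minus days 4 and 7, no filter gave 6, voom 1 and no trend 1 in place of 3. For day 7 minus day 5, no trend gave 1 in place of 3. With 1 letter of the CArG box allowed to differ, 6 members matched in place of 3. Leaving out 1 library or day gave 0 to 3 members for knockdown, 0 to 4 for Smarcc1.6, 0 to 1 for Smarcc1.7 and 0 to 3 for the knockdown by day term. For single days it gave 0 to 1 on day 4, 2 to 5 on day 5, 1 to 3 on day 6 and 1 to 2 on day 7, and for the contrasts 0 to 4 and 3 to 4. Tagln and Myl9 on day 5 and Myl9 on day 7 kept their call in all 8 fits without 1 hairpin library and all 5 other settings. A Nons library could not be left out of a single day's fit, and a lone hairpin library is assumed to vary like the others. Without the day as a replicate block 0 members were called for knockdown and 4 genes in all, against 1561 with it. Further counts over all genes that moved by over 1.5 times were 57 and 0 for knockdown from 1 hairpin (Smarcc1.6, Smarcc1.7), 0 without the block for each hairpin alone (1247 and 329 with it), and 0 with day as a number and 272 with no trend for the knockdown by day term (503 before). Smarcc1.7 alone gave 188 genes with a filter at a mean log2 CPM of 2 and 145 with no trend (329). Day 4 gave 771 with no filter, 541 with voom and 1 with no trend (348), day 5 gave 1245 with no filter and 347 with no trend (825), and day 7 gave 496 with the filter at 2 (850). Days 5 and 6 minus days 4 and 7 gave 254 with no filter, 5 with voom and 6 with no trend (41), and day 7 minus day 5 gave 186 with the filter at 2, 616 with no filter, 138 with voom and 79 with no trend (311). The hairpin difference gave 2 with no filter (0). The members' change per day had a median of 1.7 to 2.26 with 1 library or day left out. With 1 library or day left out, genes called ran from 287 (day 6) to 2003 (Nons day 4) for knockdown, from 178 (day 5) to 1694 (Nons day 4) for Smarcc1.6 and from 1 (day 5 or 6) to 1052 (Nons day 4) for Smarcc1.7. They ran from 55 (Smarcc1.6 day 5) to 1405 (Smarcc1.6 day 7) for day 5 and from 333 to 1484 for day 6. No called difference or change per day of a member reversed, but over all genes centring turned the median change per day from 0.04 to -0.05.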
